A study of Mus musculus with 4 samples.

Results

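The enzymes described here belong to those that turn farnesyl diphosphate into squalene and squalene into cholesterol. They are not the whole branch, and other enzymes that act after lanosterol are given separately below. The enzymes described were chosen by gene symbol as 9 genes of the 53465 listed in the count files. They are Fdft1, Sqle, Lss, Cyp51, Msmo1, Nsdhl, Hsd17b7, Sc5d and Dhcr7, and all 9 passed the filter on low counts. RNA-Seq was performed on primary (1°) mouse oligodendroglial cell (OGC) cultures from the forebrain of pups aged between 2 and 4 days, after 3 days under differentiating conditions. Both genotypes carried Zfp276 flox/flox alleles. The 2 ctrl libraries had no Cre, and the 2 Zfp276cko libraries carried in addition the Sox10::Cre transgene, a BAC that is active in oligodendroglial cells from the precursor stage on. A Rosa26 stopflox tdTomato reporter allele had been crossed in to recognise Zfp276cko pups, and transgenic and ctrl mice shared a mixed background of C3H and C57Bl/6J. Each library came from a separate preparation that pooled cells of 3 mice. The p-values from all 4 libraries therefore measure differences against the spread between 2 preparations per genotype. The main test took this spread as equal in both genotypes.

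Cholesterol is made by nearly all animal cells and is a main lipid of myelin, for which oligodendrocytes synthesize most of it on site because plasma lipoproteins do not cross the blood-brain barrier. The mevalonate arm of the pathway ends at farnesyl diphosphate, which also feeds other products, whereas squalene synthase is the first enzyme committed to sterols. When sterols in the endoplasmic reticulum are low, Scap escorts the transcription factor Srebf2 to the Golgi, where it is cleaved and released to activate the genes of the whole pathway. Insig proteins hold the complex back when sterols are plentiful.

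Counted reads per library ranged from 21068322 to 26599809. A member had between 1030 and 12871 counts in a library, so that the counting error was at most 3.12% and the difference between preparations set the precision. The normalized counts of Zfp276 itself were 1648 and 2230.3 in ctrl replicates 1 and 2, against 490 and 503 in Zfp276cko replicates 1 and 2, which on the log2 scale is a difference of −1.97 ± 0.18 (standard error) with an edgeR adjusted p of 0.0962. Normalized counts are counts scaled to a common effective library size. The ctrl replicates lay further apart from each other than the Zfp276cko replicates, with a biological coefficient of variation of 0.357 in ctrl and 0.0480 in Zfp276cko cells. Markers of mature oligodendrocytes and of precursors were abundant in all libraries. Ctrl replicate 1 stood apart in a list of fibroblast and vessel genes. Their summed CPM (counts scaled to library size) was 242 there against 9.76 to 14.4 in the other 3 libraries. Pecam1, a vessel gene of that list, was instead highest in the Zfp276cko libraries.

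All 9 enzymes had lower transcript levels in both Zfp276cko libraries than in either ctrl library, a pattern held by 23.7% of tested genes. Their levels in Zfp276cko cells were between 23.4% (Lss) and 48.0% (Hsd17b7) of the ctrl mean, with a median of 33.4%, and the median log2 fold change was −1.58 against −0.0013 over all 15766 tested genes. None of the 9 was past the adjusted threshold of edgeR's quasi-likelihood test, while DESeq2 called all 9 lower, against 2.3% of the genes to which it gave an adjusted p. The size of the difference depended on the ctrl preparation it was measured against, because ctrl replicate 1 exceeded ctrl replicate 2 in every one of the 9 genes. In these cultures, fewer cells that express a gene and less RNA per cell cannot be told apart.

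Fdft1 encodes squalene synthase, the committing enzyme of the sterol branch. Its normalized counts were 6469.5 and 3614 in ctrl replicates 1 and 2, against 2074 and 1814 in Zfp276cko replicates 1 and 2. The lower ctrl library was 1.74-fold above the higher Zfp276cko library. The log2 fold change of Fdft1 amounted to −1.38 with a standard error of 0.31, and edgeR's quasi-likelihood test gave an adjusted p of 0.188 (Benjamini-Hochberg adjustment over all tested genes).

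Sqle encodes squalene monooxygenase, which adds oxygen to squalene and is a rate-limiting enzyme of the later pathway. Its normalized counts were 9897 and 5379 in the ctrl libraries and 2388 and 2453 in the Zfp276cko libraries. Among the 9 genes it had the widest gap between the genotypes, with a ratio of 2.19 between the lower ctrl and the higher Zfp276cko library, and the smallest adjusted p of the edgeR test (log2 fold change −1.66, standard error 0.32, adjusted p = 0.167).

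Lss encodes lanosterol synthase, which folds the oxidized squalene into the first sterol ring system. Its normalized counts were 15282 in ctrl replicate 1, 4776 in ctrl replicate 2, 2394 in Zfp276cko replicate 1 and 2292 in Zfp276cko replicate 2. Lss had the largest log2 fold change of the 9 genes (−2.10, standard error 0.59) and also the largest difference between the ctrl replicates, at 3.2-fold. Its mean in Zfp276cko cells was 15.3% of ctrl replicate 1 but 49.1% of ctrl replicate 2, and the adjusted p from edgeR was 0.240.

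Cyp51 is the cytochrome P450 that removes a methyl group from lanosterol. It had 12864 and 6958 normalized counts in ctrl against 3210.4 and 3333 in Zfp276cko cells, which is a log2 fold change of −1.60 (standard error 0.32, edgeR adjusted p = 0.173). Msmo1, the methylsterol monooxygenase that acts on the remaining methyl groups, had 9379.6 and 3656 normalized counts in ctrl against 1763 and 1924 in Zfp276cko cells (log2 fold change −1.82, standard error 0.48, edgeR adjusted p = 0.224). For both genes the lower ctrl library was 2.09-fold (Cyp51) and 1.90-fold (Msmo1) above the higher Zfp276cko library.

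Nsdhl and Hsd17b7 encode the dehydrogenase and the reductase that complete the removal of these methyl groups together with Msmo1. Nsdhl, which lies on the X chromosome, had 4191 and 1521 normalized counts in ctrl against 932 and 979 in Zfp276cko cells. The standard error of 0.51 was wide beside the log2 fold change of −1.58, and the 95% interval ran from −2.97 to −0.19 (edgeR adjusted p = 0.284). Hsd17b7 had 3719 and 2095 normalized counts in ctrl against 1333 and 1461 in Zfp276cko cells, the smallest log2 fold change of the 9 genes (−1.06, standard error 0.30, edgeR adjusted p = 0.241). The genotypes did not overlap in either gene, and the nearest libraries were 1.55-fold apart for Nsdhl and 1.43-fold for Hsd17b7.

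Sc5d is the lathosterol desaturase and Dhcr7 the reductase of the following step, which yields cholesterol when the side chain is already saturated. Sc5d had 4673 and 2689 normalized counts in ctrl against 1498 and 1462 in Zfp276cko cells (log2 fold change −1.31, standard error 0.29, edgeR adjusted p = 0.186). Dhcr7 had 5473 and 2548 normalized counts in ctrl against 1827 and 1705 in Zfp276cko cells (log2 fold change −1.18, standard error 0.39, edgeR adjusted p = 0.290). Dhcr7 had the narrowest gap of the 9 genes, with ctrl replicate 2 only 1.39-fold above Zfp276cko replicate 1.

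**Figure D1:**
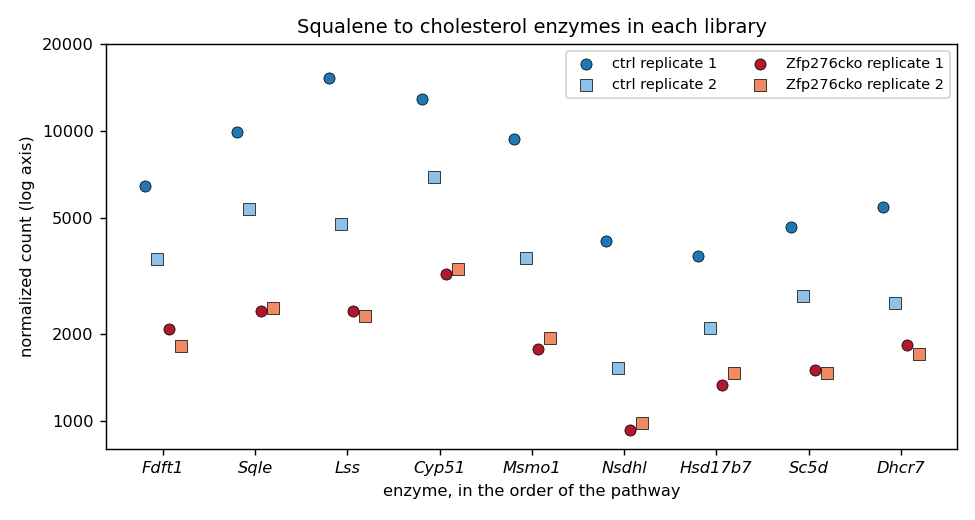
Normalized counts (log axis) of the 9 enzymes in pathway order, with 1 point per library. In each gene ctrl replicate 1 is the highest point, ctrl replicate 2 the next, and the 2 Zfp276cko libraries lie close together below both.

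Over all tested genes, a gene was called when its adjusted p did not exceed 0.05, its log2 fold change was 0.6 or more in size and its normalized counts averaged 20 or more. By edgeR's quasi-likelihood test 0 genes were called lower (0%) and 0 higher, the smallest adjusted p being 0.0725, while 1151 genes were lower and 1313 higher at an unadjusted p up to 0.05. The adjusted p-values of the 9 enzymes from this test ranged from 0.167 to 0.290. All 9 enzymes were among those lower by the unadjusted p, compared with 7.3% of tested genes that were lower and 8.33% that were higher. The unadjusted p-values of the 9 enzymes lay between 0.00578 and 0.0362 in this fit over all genes. The Zfp276cko libraries were both lower than either ctrl library in 9 of 9 enzymes and in 23.7% of tested genes, and both higher in 26.8% of tested genes. A log2 fold change of −1 or lower was found for all 9 and for 2.92% of tested genes, and between 60 and 405 of the tested genes had a lower value than a given enzyme. An exact permutation test of 2 against 2 libraries cannot give a two-sided p below 0.333, so none is reported for single genes.

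**Figure D2:**
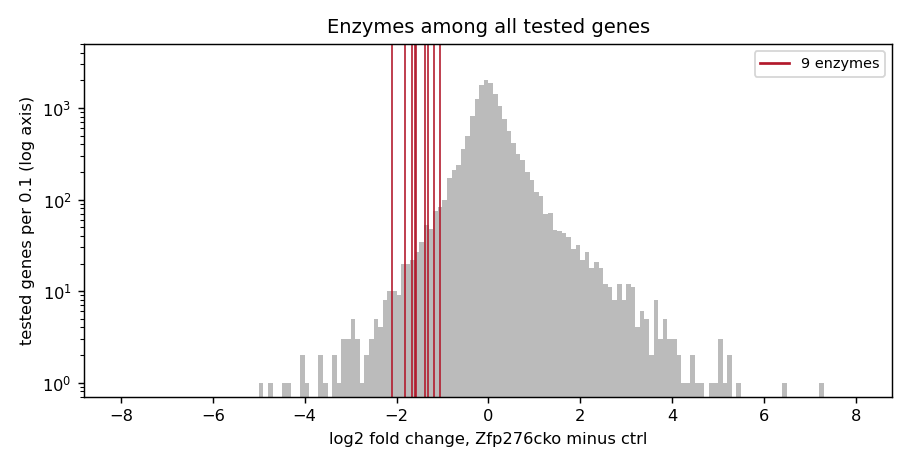
Distribution of the log2 fold change (Zfp276cko minus ctrl) over the 15766 tested genes, as genes per bin of 0.1 on a log axis, with the 9 enzymes as vertical lines. The lines lie between −2.10 and −1.06, in the lower tail of a distribution whose median is −0.0013.

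DESeq2 called all 9 enzymes lower with the same thresholds, against 2.3% called lower and 3.05% called higher of the genes to which it gave an adjusted p. Its adjusted p-values ran from 2.76e-05 (Sqle) to 0.0335 (Dhcr7). When limma voom was given a separate weight for each genotype, Sqle and Cyp51 were called (adjusted p = 0.0355 and 0.0399) among 0.457% of tested genes called lower, and the other 7 were not. Over every alternative run, leaving out libraries included, the adjusted p-values of the 9 enzymes spanned 2.37e-17 to 0.99994, and the log2 fold changes stayed negative.

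The 95% intervals of the 9 log2 fold changes all contained the range from −1.87 to −0.78. All 9 intervals rest on the same libraries, so their overlap does not settle the order of the enzymes. Lss, Msmo1, Sqle and Cyp51 had the most negative estimates, and Sc5d, Dhcr7 and Hsd17b7 the least negative ones. No test of the difference between enzymes was made.

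The ctrl preparations differed from each other in all 9 enzymes and in the same direction. Ctrl replicate 1 had between 1.74 times (Sc5d) and 3.2 times (Lss) the level of ctrl replicate 2, with a median ratio of 1.85. In 4 of the 9 enzymes (Lss, Msmo1, Nsdhl and Dhcr7) the ctrl replicates were at least 2-fold apart, as they were in 12.8% of genes with a mean of at least 20 normalized counts. Ctrl replicate 1 was the higher one by at least 2-fold in 6.72% of such genes. Their median log2 ratio of ctrl replicate 1 over 2 was 0.0005. The Zfp276cko replicates differed by ratios between 0.913 (Hsd17b7) and 1.14 (Fdft1). Summed over the 9 enzymes, the normalized counts were 71948 and 33237 in ctrl replicates 1 and 2, against 17419 and 17422 in Zfp276cko replicates 1 and 2.

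Against ctrl replicate 1, the Zfp276cko mean amounted to between 15.3% and 37.6% of the level, with a median of 25.4%. Against ctrl replicate 2 it was between 45.0% and 69.3%, with a median of 53.8%. Measured on ctrl replicate 2, Sqle (45.0%), Cyp51 (47.0%), Lss (49.1%), Msmo1 (50.4%), Fdft1 (53.8%) and Sc5d (55.0%) lay close together, and Nsdhl (62.8%), Hsd17b7 (66.7%) and Dhcr7 (69.3%) had the highest percentages. Lss thus had the lowest percentage relative to ctrl replicate 1, and Sqle relative to ctrl replicate 2.

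**Figure D3:**
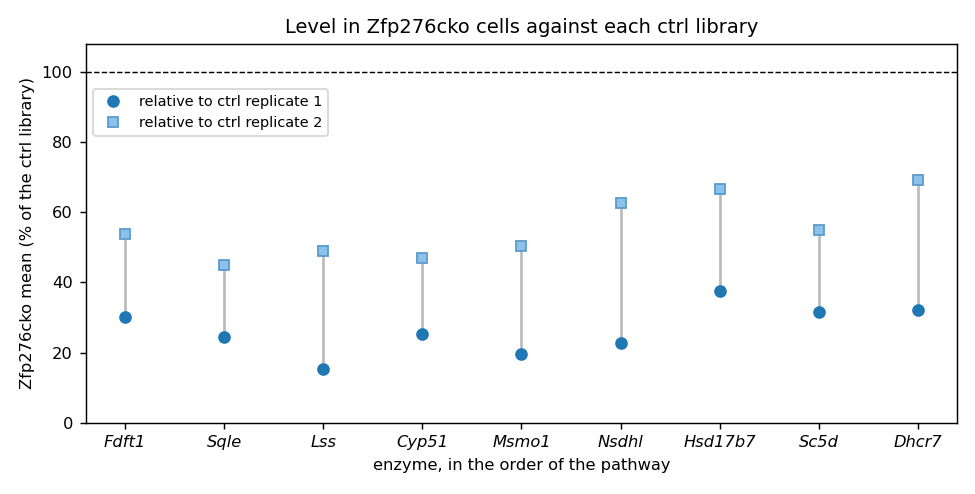
Mean normalized count of the 2 Zfp276cko libraries as a percentage of ctrl replicate 1 (circles) and of ctrl replicate 2 (squares) for each enzyme, with a dashed line at equal levels. All points lie below the line, at 15.3% to 37.6% for the circles and at 45.0% to 69.3% for the squares.

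Without ctrl replicate 1 the median log2 fold change of the 9 enzymes was −0.89, and without ctrl replicate 2 it was −1.99. In both cases the remaining ctrl library exceeded both Zfp276cko libraries in all 9 enzymes, which was also so for 42.2% of tested genes without ctrl replicate 1 and 42.9% without ctrl replicate 2. With ctrl replicate 1 left out, edgeR called 7 of the 9 enzymes lower, among 5.76% of tested genes, with a spread that rests on the Zfp276cko libraries and assumes that a lone ctrl preparation varies as little as they do. Hsd17b7 (−0.58) and Dhcr7 (−0.53) then missed the threshold on the log2 fold change. With ctrl replicate 2 left out, all 9 were called, among 7.77% of tested genes.

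Levels of different enzymes were compared per length, as RPKM, which are counts divided by library size and by the exon length of the gene in GENCODE. On this scale Cyp51 was the highest of the 9 enzymes in all 4 libraries, at 123 and 66.7 in ctrl against 30.8 and 31.9 in Zfp276cko cells. Sqle had 75.5 and 41.0 in ctrl against 18.2 and 18.7 in Zfp276cko cells, and Fdft1 64.8 and 36.2 in ctrl against 20.8 and 18.2 in Zfp276cko cells. Hsd17b7 had the lowest RPKM in both ctrl libraries (30.8 and 17.4) and Lss the lowest in both Zfp276cko libraries (9.39 and 8.99). The share of Lss in the summed RPKM of the 9 enzymes was 10.7% in ctrl replicate 1 and between 6.30% and 6.95% in the other 3 libraries. The order depended on the length used. With the length of the principal transcript in place of all exons, Msmo1 or Sqle was the highest of the 9 in each library.

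Among tested genes with a known length, the RPKM of the 9 enzymes lay between the 89.2 and 98.2 percentile in ctrl replicate 1 and between the 80.3 and 96.3 percentile in ctrl replicate 2. In the Zfp276cko libraries the range was from the 63.8 to the 90.5 percentile. The enzymes thus remained expressed above the median gene in every library.

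The 9 genes lie on 9 different chromosomes of mm10. Lss spans 76531588 to 76557138 on chromosome 10 with 22 exons in its principal transcript, and Sqle spans 59315077 to 59331192 on chromosome 15 with 11 exons. Cyp51 (chromosome 5, 4081145 to 4104746), Msmo1 (chromosome 8, 64718139 to 64733792), Hsd17b7 (chromosome 1, 169949535 to 169969241) and Sc5d (chromosome 9, 42251595 to 42264256) are transcribed from the minus strand. Nsdhl (chromosome X, 72918557 to 72958514) and Dhcr7 (chromosome 7, 143823145 to 143848410) are transcribed from the plus strand, as are Lss and Sqle. Exons of 3 of the 9 genes overlap exons of a gene on the opposite strand. Fdft1 (chromosome 14, minus strand, 63145150 to 63179578) shares 774 nt, or 18.3% of its exon length, with Ctsb, a lysosomal protease gene. Lss shares 3.53% with the antisense gene 4930483K19Rik and Cyp51 shares 3.76% with Akap9. The strand setting of the counting is not stated in the sources used here. Ctsb had 53048 and 27784 normalized counts in ctrl against 74494 and 71966 in Zfp276cko cells (log2 fold change 0.86, edgeR adjusted p = 0.351), and its part in the counts of Fdft1 was not tested.

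RefSeq promoters (GRCm38.p6, windows of 300 bases that lie mostly before the start site) were at hand for 7 of the 9 genes, and none was used for Fdft1 and Sqle. Srebf2 is known to bind sterol regulatory elements in the promoters of this pathway beside the general factors NF-Y and Sp1. The NF-Y box CCAAT was found on either strand in promoters of 7 of 7 members and of 41.1% of all 27025 genes in the table. The GC box GGGCGG was found in 7 of 7 members and 38.2% of genes. The sterol regulatory element core TCACNCCAC was found in 0 of 7 members and 1.44% of genes, and its looser form CACNCCA, which the core contains, in Msmo1 and in 20.6% of genes. Other variants of the element were not searched, so a missing match does not show that a promoter lacks one. The E-box CACGTG was held by 3 of 7 members (Hsd17b7, Sc5d and Dhcr7) and 8.09% of genes. Dhcr7 has 3 promoter windows, of which only 1 holds the NF-Y box, and a gene with several windows has more chances of a match. Both strands were searched for every motif.

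Shown are the promoters of the gene with the largest and the gene with the smallest log2 fold change and of Msmo1, which has the only match to the looser sterol regulatory element. Capitals mark the NF-Y box (CCAAT, or ATTGG where it lies on the other strand) and, in Msmo1, the match CACTCCA.
Lss (chr10:76531355-76531654, plus strand): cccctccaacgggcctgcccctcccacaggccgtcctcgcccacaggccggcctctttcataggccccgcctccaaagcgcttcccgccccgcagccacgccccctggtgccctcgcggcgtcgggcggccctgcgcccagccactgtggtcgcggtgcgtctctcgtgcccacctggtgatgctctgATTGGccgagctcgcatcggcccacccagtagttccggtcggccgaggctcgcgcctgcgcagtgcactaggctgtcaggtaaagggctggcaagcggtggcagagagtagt
Msmo1 (chr8:64733529-64733828, minus strand): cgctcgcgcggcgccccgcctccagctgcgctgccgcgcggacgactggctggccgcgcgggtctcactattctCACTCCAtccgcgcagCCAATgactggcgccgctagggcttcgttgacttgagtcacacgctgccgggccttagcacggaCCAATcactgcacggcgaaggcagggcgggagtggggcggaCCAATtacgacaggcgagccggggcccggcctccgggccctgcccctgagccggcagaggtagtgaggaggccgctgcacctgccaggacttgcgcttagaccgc
Hsd17b7 (chr1:169969156-169969455, minus strand): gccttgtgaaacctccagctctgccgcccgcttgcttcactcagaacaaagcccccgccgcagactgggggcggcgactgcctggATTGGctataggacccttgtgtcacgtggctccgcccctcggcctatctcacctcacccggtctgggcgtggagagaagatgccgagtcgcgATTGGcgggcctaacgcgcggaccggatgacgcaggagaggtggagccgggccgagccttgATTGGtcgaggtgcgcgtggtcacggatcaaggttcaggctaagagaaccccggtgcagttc
The Lss promoter holds 1 NF-Y box, whereas Msmo1 and Hsd17b7 hold 3 each. Of the 4 other genes with a promoter, Nsdhl holds 4 boxes, Cyp51 and Sc5d hold 1 each, and 1 window of Dhcr7 holds 2. A match describes the letters of the window and not the binding of a factor.

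Other genes of the pathway are counted below by the unadjusted p of edgeR's quasi-likelihood test up to 0.05, since the test called 0 of them after adjustment. For the mevalonate arm, which precedes squalene synthase, all 7 listed genes were lower by that p (7.3% of tested genes), and in all 7 both Zfp276cko libraries were below both ctrl libraries (23.7%). The median of their log2 fold changes was −1.58, and DESeq2 called all 7 (2.3%). Mvk, the mevalonate kinase, had 1452 and 1034 normalized counts in ctrl against 562 and 522 in Zfp276cko cells (log2 fold change −1.20, standard error 0.20, edgeR adjusted p = 0.140). Fdps, which makes the substrate of squalene synthase, had a log2 fold change of −1.82 and Acat2, which joins acetyl units at the start, one of −1.23, while Pmvk had −0.68. Mvd, with the largest p of this list, had 3114 and 1367 normalized counts in ctrl against 784 and 717 in Zfp276cko cells (−1.58, standard error 0.42, edgeR adjusted p = 0.229). The difference between both arms was not tested.

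Of 3 further enzymes that act after lanosterol, 2 were lower by the unadjusted p (7.3% of tested genes). Tm7sf2, a sterol reductase, had 1447 and 545 normalized counts in ctrl against 370.1 and 354 in Zfp276cko cells (log2 fold change −1.46). Ebp, the sterol isomerase, had 654 and 586 in ctrl against 390 and 375 in Zfp276cko cells (−0.70). Lbr, a protein of the nuclear envelope with the same reductase activity as Tm7sf2, had 757 and 788 in ctrl against 690 and 687 in Zfp276cko cells (−0.17, unadjusted p = 0.191 from edgeR). The ctrl replicates differed more in Tm7sf2 than in Ebp and Lbr.

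**Figure D4:**
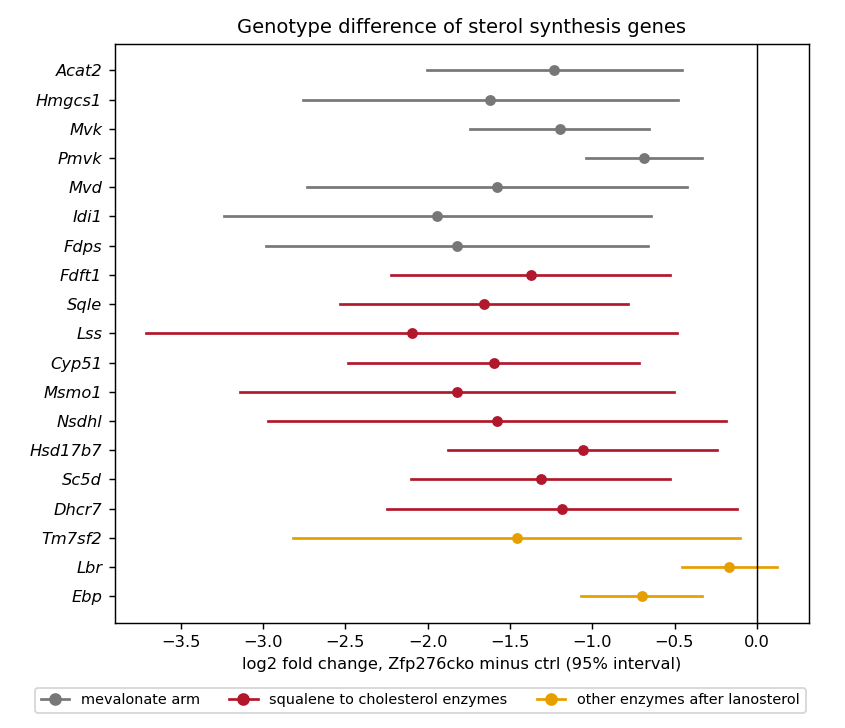
Log2 fold change (Zfp276cko minus ctrl, points) with the 95% interval from edgeR's quasi-likelihood fit (lines) for 7 genes of the mevalonate arm, the 9 squalene to cholesterol enzymes and 3 other enzymes after lanosterol. The intervals of the 9 enzymes all end below 0 and overlap each other, and Lbr is the only gene shown whose interval includes 0.

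Several sterol enzymes are oxygenases that take electrons from reductases shared with other pathways. In the list of these partners 5 of 6 genes were found. Of these, 1 was lower (7.3% of tested genes) and 1 higher (8.33%), and the median log2 fold change was 0.0052. Cyb5r3, the cytochrome b5 reductase, had 3783 and 4120 normalized counts in ctrl against 4070.1 and 3861 in Zfp276cko cells. Erg28, a scaffold of the sterol enzymes, was entered in the list under an older symbol. Chosen for mention with its values known, it had 1979 and 1448 normalized counts in ctrl against 1003 and 1063 in Zfp276cko cells (log2 fold change −0.73). Of 4 genes for the degradation of sterol enzymes, 1 was lower (7.3% of tested genes) and the median was −0.15. Rnf139 among them had the largest p, with a log2 fold change of −0.14. Of 6 genes for other uses of farnesyl diphosphate, 1 was lower (7.3% of tested genes) and the median was −0.06. Ggps1 among them had 1219 and 1238 normalized counts in ctrl against 1092 and 1445 in Zfp276cko cells.

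Of 11 genes of the SREBP pathway and of sterol uptake, 5 were lower (7.3% of tested genes) and 0 higher (8.33%). The median log2 fold change was −0.08, and DESeq2 called 4 lower (2.3% of genes with an adjusted p). Only Srebf1, the related factor better known for fatty acid synthesis and named here with its values known, was above both ctrl libraries in both Zfp276cko libraries, with 844 and 1515 normalized counts in ctrl against 2063 and 1927 in Zfp276cko cells (log2 fold change 0.76, edgeR adjusted p = 0.347). Srebf2 itself had 8015 and 7760.1 normalized counts in ctrl against 5219 and 5078 in Zfp276cko cells (log2 fold change −0.62, standard error 0.10, edgeR adjusted p = 0.134). Its ctrl replicates were close, in contrast to those of the 9 enzymes. Insig1, a retention protein that is itself a target of the pathway, had 3378 and 2475 in ctrl against 1213 and 1246 in Zfp276cko cells (−1.25). Stard4, a sterol carrier, had 2904 and 1364 in ctrl against 637 and 729 in Zfp276cko cells (−1.64). Scap had 2404 and 2691 in ctrl against 2703 and 2431 in Zfp276cko cells, with overlapping genotypes.

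Of 9 genes for oxysterols and cholesterol efflux, 4 were higher (8.33% of tested genes) and 1 lower (7.3%), with a median log2 fold change of 0.78. Ch25h, which makes an oxysterol known to retain Scap through Insig proteins, had 296 and 414 normalized counts in ctrl against 1457 and 1329 in Zfp276cko cells (1.97, standard error 0.20, edgeR adjusted p = 0.103). Abca1, a cholesterol exporter, had 4990.2 and 6533 in ctrl against 13138 and 13190.5 in Zfp276cko cells (1.19). Mylip, a ubiquitin ligase induced by oxysterols, had a log2 fold change of 0.78 and Cyp46a1, a cholesterol hydroxylase of the brain, one of −0.80. Cyp27a1 had 73.6 and 7.88 in ctrl against 50.7 and 42.1 in Zfp276cko cells. DESeq2 called 4 of these genes higher (3.05% of genes with an adjusted p) and 1 lower (2.3%).

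The genes whose pattern over the 4 libraries was most like that of the 9 enzymes were sought among 14315 genes, by the root mean square distance between log2 values centred on each gene's mean. The 10 nearest included the sterol genes Hmgcs1 (0.0594), Mvd (0.0615) and Stard4 (0.0944). The others were 9530053A07Rik (0.0374), Gp1bb, Gm44898, Clec5a, Pllp, Flnc and Jakmip1 (0.113). Pllp, a myelin protein, had 10287 and 4915 normalized counts in ctrl against 2907 and 3036 in Zfp276cko cells. The likeness rests on 4 libraries, and the centred mean of the 9 enzymes was 1.25 in ctrl replicate 1, 0.16 in ctrl replicate 2, −0.71 in Zfp276cko replicate 1 and −0.70 in Zfp276cko replicate 2.

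Marker lists moved with some of these differences, given as summed CPM. Those for 7 genes of fibroblasts and vessels summed to 242 in ctrl replicate 1, 9.76 in ctrl replicate 2 and 14.4 and 12.8 in the Zfp276cko libraries, with Col1a1 and Col1a2 as the main contributors. Pdgfrb was also highest in ctrl replicate 1, at 5.37 CPM against 0.76 in ctrl replicate 2 and 1.49 and 0.95 in the Zfp276cko libraries. Cldn5 was at 0 in all libraries and shows no pattern. Pecam1 did not share the pattern, with 4.47 and 3.95 CPM in ctrl replicates 1 and 2 against 6.47 and 6.80 in Zfp276cko replicates 1 and 2. For 6 microglial genes the sums were 748, 361, 440 and 434 in the same order, and for 6 astrocyte genes they were 1155, 982, 1112 and 1078. The sums for 8 genes of mature oligodendrocytes were 8825, 12845, 6507 and 6602 and for 5 genes of oligodendrocyte precursors 8415, 5906, 4305 and 4217. Those for 5 neuronal genes were 49.4, 173, 129 and 123, and those for 7 interferon response genes were 203, 90.8, 2283 and 2216. Ctrl replicate 1, in which all 9 sterol enzymes were highest, had the highest level of 5 of 7 fibroblast and vessel genes and the lowest level of 5 of 5 neuronal genes. All 7 interferon response genes were higher in ctrl replicate 1 than in ctrl replicate 2, and each was higher still in both Zfp276cko libraries. The lists of precursor, microglial, astrocyte and mature oligodendrocyte genes were mixed within themselves. Of the precursor genes, 3 of 5 were highest in ctrl replicate 1, led by Gpr17 (4798 CPM against 2952 in ctrl replicate 2), whereas Pdgfra was lowest there (425 against 656). Of the microglial genes, 4 of 6 were highest there, led by Csf1r (483 against 78.3), and Aif1 (52.8 against 136) and Cx3cr1 were lowest. Of the astrocyte genes, 2 of 6 were highest and 4 lowest there. The sum for mature oligodendrocytes was dominated by Mbp and Cnp, and 3 of the 8 genes (Ermn, Cldn11 and Mog) were higher in ctrl replicate 1 than in ctrl replicate 2. These genes were singled out with their values known. The part of these differences in the results for the 9 enzymes was not tested. Without ctrl replicate 1 the median log2 fold change of the 9 enzymes was −0.89 in place of −1.58, and all 9 lay below the remaining ctrl library, as did 42.2% of tested genes.

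**Figure D5:**
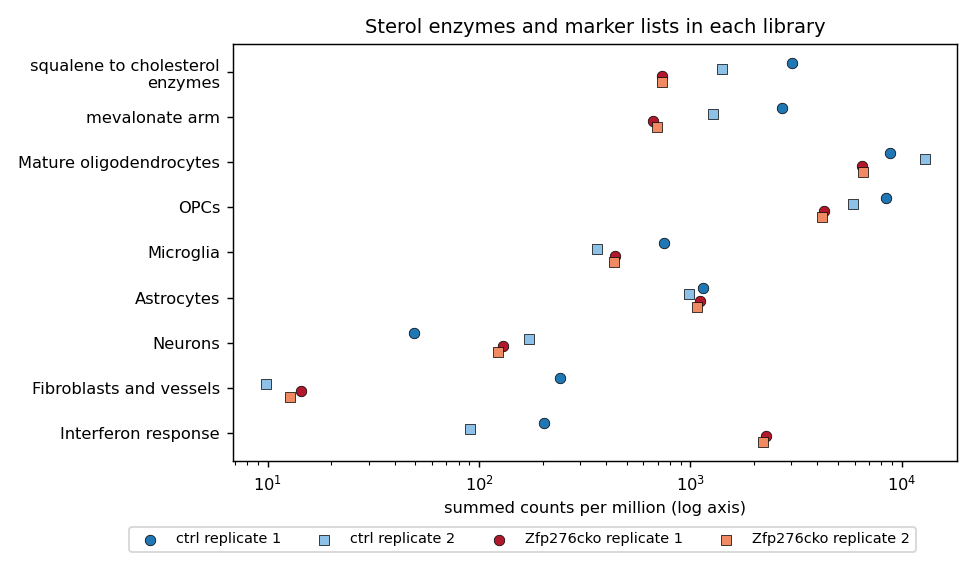
Summed CPM (log axis) of the 9 sterol enzymes, of the mevalonate arm and of marker lists in each of the 4 libraries. Ctrl replicate 1 is far to the right of the other libraries for fibroblast and vessel genes (242 against 9.76 to 14.4), and both Zfp276cko libraries are far to the right for interferon response genes (2283 and 2216 against 203 and 90.8).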

How the data were processed

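RNA-Seq reads (single-end, from stranded mRNA libraries) had been mapped by the authors to mm10 (GRCm38) with STAR 2.5.4a, and the deposited values are raw counts, listed by gene symbol. The study's methods name HTSeq for the counting, while the submitters' processing notes list featureCounts 1.5.1, and the strand setting is not given in the sources used here. Genes were kept with filterByExpr (15766 of 53465, holding 99.9% of counts), normalized by TMM and compared between 2 ctrl and 2 Zfp276cko libraries with edgeR 4.0.16 (quasi-likelihood test, Benjamini-Hochberg adjustment over all tested genes, R 4.3.3). DESeq2 1.42.0, limma 3.58.1 voom, other scalings and filters, a replicate block and leaving out each library were alternatives, and the legacy setting of the quasi-likelihood test was added after the data were seen. The analysis was tested on simulated counts with a small and equal spread in both genotypes. That test does not cover the wider spread between the ctrl libraries. Standard errors were derived from the F statistic, and 95% intervals from its degrees of freedom.

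The 9 enzymes and the gene lists were chosen with earlier results of these data known. Genes of the other lists were named if they had an unadjusted p up to 0.05 and a log2 fold change of 0.6 or more in size (at most the 4 with the smallest p), together with the gene with the largest p, and for the likeness of pattern the 10 nearest genes with a mean of at least 20 normalized counts. A gene that this rule names is not reported here. Exon lengths and positions came from GENCODE M21 on mm10, which gave a length for 98.2% of tested genes by symbol. The version of the authors' annotation was not checked against it.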

Additional observations from a re-analysis of the deposited data

How the results depend on the processing

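The log2 fold changes of the 9 enzymes were negative under all alternatives, and with all 4 libraries they ranged from −2.12 to −0.999. Their number called was 0 with edgeR under other scalings, filters and settings and with plain limma voom, 9 with DESeq2 and 2 with limma voom weighted per genotype. Leaving out 1 library at a time gave a median log2 fold change between −1.99 and −0.89 (−0.89 without ctrl replicate 1). The adjusted p-values from edgeR were far smaller when a ctrl library was left out than when a Zfp276cko library was. Fewer enzymes had an unadjusted p up to 0.05 in the latter runs. In all of these runs a lone library was assumed to vary like the others. Plain voom left 8 enzymes with an unadjusted p up to 0.05, among 1083 of 15766 tested genes that were lower by that p. Over all genes, the counts called lower and higher were 0 and 0 with edgeR, 339 and 450 with DESeq2, 72 and 133 with weighted voom, and 0 and 8 without a filter on low counts.

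The replicate numbers are names only, and same-numbered libraries did not deviate together (r = 0.00637 over 14324 genes). A replicate block left 0 enzymes called and 9 by the unadjusted p, with a median log2 fold change of −1.41 and adjusted p-values between 0.186 and 0.344. Over all genes it left 756 lower and 1036 higher by the unadjusted p, against 1151 and 1313 without it. With 2 libraries per genotype and unequal spread, the number of preparations and not the sequencing depth limits what can be said.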
